A study of Mus musculus with 15 samples.

Results

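Integrins are cell surface receptors, each built of an alpha and a beta subunit, and laminins are the large trimeric proteins, each of an alpha, a beta and a gamma chain, from which basement membranes are built. The genes described here were all those in the deposited tables whose symbol is that of an integrin alpha subunit, an integrin beta subunit or a laminin alpha, beta or gamma chain. This choice by symbol gave 37 of 24421 genes, of which 26 encode integrins and 11 encode laminins. The rule itself used no measured value, but the members and all gene lists were chosen with earlier results of these data known.

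The alpha subunit largely sets what an integrin binds. Some integrins bind laminins, some bind collagens, some bind the RGD motif of fibronectin and vitronectin, and the leukocyte integrins bind receptors on other cells. In brain, laminins lie mainly in the basement membranes of blood vessels and of the pial surface, where endothelial cells, pericytes and astrocyte endfeet are anchored through integrins. Tumour cells of glial origin also use integrins to grip matrix along vessels and white matter, and integrins that hold the alpha v subunit release active TGF-beta from its latent complex.

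RNA was measured by sequencing poly(A) RNA from mouse brain tumour tissue. There were 15 libraries in 5 groups of 3: EPN Sox9-GOF, EPN control, HGG Sox9-GOF, HGG Sox9-LOF and HGG control. EPN is the usual short form of ependymoma and HGG of high-grade glioma, GOF and LOF stand for gain and loss of function, and Sox9 encodes a transcription factor that glial precursors and cartilage depend on. The labels do not say how either tumour or the change in Sox9 was made, which strain, age or sex the animals had, or whether replicates came from separate animals, so a p-value here reflects only how far these libraries vary, which may in part be technical. Depth ran from 4665428 to 14119140 reads in genes per library. Levels are given as rescaled counts, that is reads per gene divided by a size factor that puts all 15 libraries on one scale.

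Sox9 had 2055, 1834 and 2692 rescaled counts in the EPN Sox9-GOF libraries, against 1045, 1040.2 and 1189 in the EPN controls. Among HGG libraries it had 1275, 1537 and 1391 under Sox9-GOF, 739, 579 and 395 under the label Sox9-LOF and 218, 285 and 310.3 among controls. Both gain-of-function groups thus lay above their controls, but the libraries labelled Sox9-LOF also lay above the HGG controls, against their label as far as RNA level goes. No direction below is read as an effect of losing Sox9. The HGG control libraries, which serve both Sox9 comparisons in HGG, differed widely among themselves: in HGG control 2 the 10 measured markers of fibroblasts and meninges summed to 28952 rescaled counts against 6531 and 7317 in controls 1 and 3, and the 12 lymphocyte markers to 45.1 against 2362 and 4301. HGG control 1 stood apart in other lists, with the 10 choroid plexus markers at 135775 against 3077 and 2359.9 in controls 2 and 3, and the 10 cell cycle markers at 13729 against 4207 and 4581. The ependymal marker list, 10 genes led by Foxj1, summed to 252 to 342 in the EPN controls, against 491 to 955 in the HGG controls, with up to 1 and up to 2 of the 10 at 0 in a library, so each EPN control lay below each HGG control and these markers did not mark out the EPN libraries.

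Promoter windows are shown for 4 subunits. Itgav and Itgb5, which pair in a vitronectin receptor, were both higher in EPN controls than in HGG controls, and their windows hold the GC box. Of the other members that passed as higher there and had a window, Itga5 held 2 GC boxes, and Itga8, Itga9 and Itga11 held none. Itga8 and Itgb1, which also pair with each other, were the members whose windows held a SOX motif. Each window runs from 250 bases before to 50 bases after the RefSeq start of the gene on the GRCm38.p6 build, and is written 5′ to 3′ on the gene's own strand. Capitals mark the GC box (GGGCGG, or CCGCCC where it lies on the other strand) in Itgav and Itgb5, and the SOX motif (ACAAAG or ACAATG, or CTTTGT or CATTGT on the other strand) in Itga8 and Itgb1. The windows are chr2:83724147-83724446 on the plus strand for Itgav, chr16:33829415-33829714 on the plus strand for Itgb5, chr2:12301895-12302194 on the minus strand for Itga8 and chr8:128685404-128685703 on the plus strand for Itgb1.
Itgav: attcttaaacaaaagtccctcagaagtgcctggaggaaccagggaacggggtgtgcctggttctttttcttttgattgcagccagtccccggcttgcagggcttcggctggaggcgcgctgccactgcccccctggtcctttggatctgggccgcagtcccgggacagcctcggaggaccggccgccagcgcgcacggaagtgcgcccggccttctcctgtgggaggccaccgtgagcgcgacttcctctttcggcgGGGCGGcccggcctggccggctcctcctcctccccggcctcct
Itgb5: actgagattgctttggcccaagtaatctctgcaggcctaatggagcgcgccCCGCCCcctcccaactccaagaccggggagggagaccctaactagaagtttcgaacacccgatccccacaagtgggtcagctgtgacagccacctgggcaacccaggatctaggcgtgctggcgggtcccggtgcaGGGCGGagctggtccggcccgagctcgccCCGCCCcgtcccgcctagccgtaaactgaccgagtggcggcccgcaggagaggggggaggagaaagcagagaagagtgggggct
Itga8: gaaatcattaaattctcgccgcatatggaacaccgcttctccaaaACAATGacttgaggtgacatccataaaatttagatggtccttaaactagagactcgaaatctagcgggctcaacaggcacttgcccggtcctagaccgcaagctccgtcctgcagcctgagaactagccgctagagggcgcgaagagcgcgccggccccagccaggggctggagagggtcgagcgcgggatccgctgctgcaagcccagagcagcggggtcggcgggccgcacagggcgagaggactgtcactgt
Itgb1: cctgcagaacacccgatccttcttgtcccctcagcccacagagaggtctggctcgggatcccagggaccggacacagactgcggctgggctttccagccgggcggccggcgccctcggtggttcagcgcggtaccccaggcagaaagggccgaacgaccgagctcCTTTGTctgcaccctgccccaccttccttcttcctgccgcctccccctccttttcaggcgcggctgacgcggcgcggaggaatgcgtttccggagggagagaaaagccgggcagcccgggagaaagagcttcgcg
RefSeq promoter windows were at hand for 23 of the 37 genes. On either strand, the SOX motif stood in 2 of these 23 windows (8.7%), against 28.8% of 27025 windows of all genes. In Itga8 the match lies 205 bases before the start, and in Itgb1 it lies 85 bases before the start on the other strand. The GC box stood in 11 of the 23 (47.8%), against 35.9% of all windows, and the letters GAGGAA, the core bound by PU.1 and other ETS factors, stood in 12 (52.2%), against 28.3%. These are letter matches in short windows and show no binding.

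Levels of different genes were compared as rescaled counts per kilobase of exon. Among integrins, the shared beta subunit Itgb1, which pairs with many alpha subunits, had the highest mean in every group. In the EPN controls it averaged 1660.0 ± 196 per kilobase (SD, n = 3), followed by Itgb5 at 1462 ± 204, Itga5 at 525 ± 131, Itgam at 342 ± 94 and Itgav at 308 ± 18. Itgb1 and Itgb5 lay about 1 SD apart and Itgam and Itgav less than the SD of Itgam, while Itga5, the fibronectin receptor subunit, lay apart from its neighbours by more than their SDs. In the HGG controls Itgb1 averaged 883 ± 361, and Itgb2, the shared beta subunit of leukocyte integrins, came next at 552 ± 456 with an SD nearly as large as its mean. Itgb5 followed at 393 ± 132 and Itgam at 174 ± 107.

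Among laminins, the gamma chain Lamc1, part of most laminin trimers, led in 4 of the 5 groups. In the EPN Sox9-GOF libraries it stood at 272 ± 64.8 per kilobase, just under the beta chain Lamb1 at 285 ± 62.9, a gap well inside either SD. In the EPN controls Lamc1 averaged 340.3 ± 91, Lamb1 284 ± 82, Lamc3 229 ± 147 and Lamb2 172 ± 11.9, and of the alpha chains Lama5, Lama4 and Lama1 averaged 129 ± 36.3, 100.4 ± 28.3 and 83.8 ± 65.1. In the HGG Sox9-GOF libraries the order was Lamc1 at 88.3 ± 27, Lamb2 at 52.3 ± 19.1 and Lama4 at 25 ± 12.2. Lama1, Lama5 and Lamc3, prominent in EPN tumours, were each under 10 per kilobase there.

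Lama3 and Lamb3, which are known from epidermal laminin, were low and reached at most 126 and 25 rescaled counts in any library. Itgb6, an epithelial partner of alpha v, had at most 5.56 rescaled counts and was too low to test in any comparison. The leukocyte subunit Itgad had 1.06, 2.25 and 3.11 rescaled counts in the EPN controls, 5 reads in all over the 3 libraries.

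**Figure D1:**
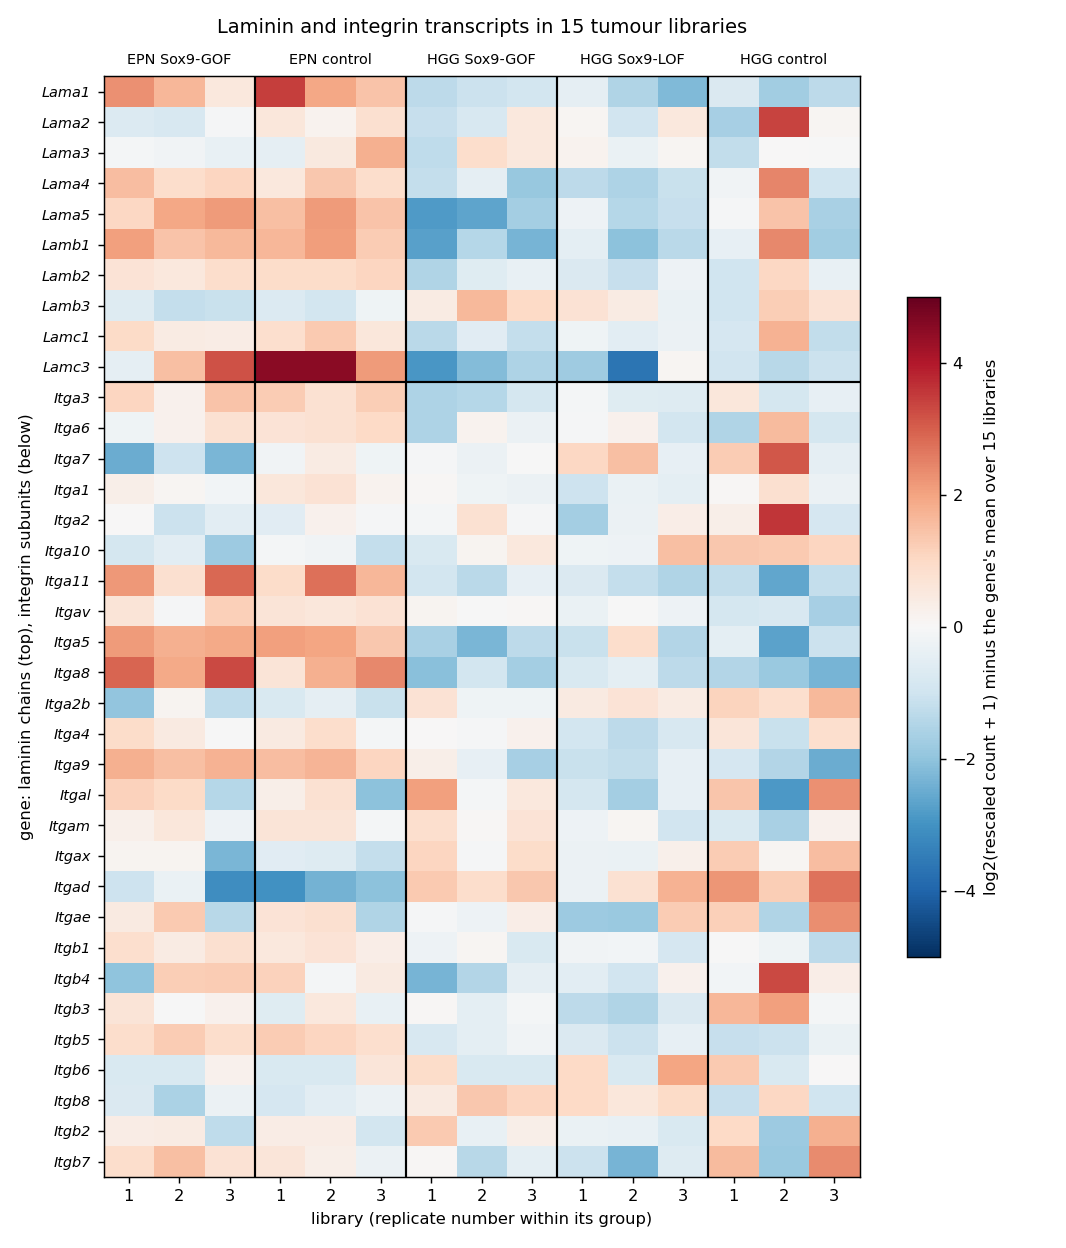
Level of 36 of the 37 genes (lines, ordered by role) in each of the 15 libraries (columns), as its log2(rescaled count + 1) less its own average across libraries. Lama1, Lama5, Lamb1, Itga5, Itga8 and Itga9 are high in EPN columns, and HGG control 2 stands apart from HGG controls 1 and 3 for most laminins.

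The spread among HGG controls was widest. The median SD of the tested members on the log2 scale was 1.04 in the HGG controls, against 0.41 to 0.59 in the other groups, while over all genes it was 0.46 in the HGG controls. HGG control 2 was the highest HGG control for 7 of 10 tested laminins (70%), against 31.8% of all genes. Lamc1 shows the pattern, with 827, 4912 and 619 rescaled counts in HGG controls 1, 2 and 3. Summed over the 11 laminins, the levels were 2941, 16756 and 2133 in the same libraries. Of the HGG libraries, HGG control 2 alone lay above the EPN range, which was 8800 to 10937 in the EPN Sox9-GOF libraries and 8916 to 14639 in the EPN controls.

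The integrin sums varied less. They were 26671 to 30004 in the EPN Sox9-GOF libraries, 23693 to 29618 in the EPN controls, 14568 to 17169 in the HGG Sox9-GOF libraries, 11223 to 14591 in those labelled Sox9-LOF and 14787 to 17047 in the HGG controls. Every EPN library lay above every HGG library for this sum. For laminins the same held against all HGG libraries other than HGG control 2.

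**Figure D2:**
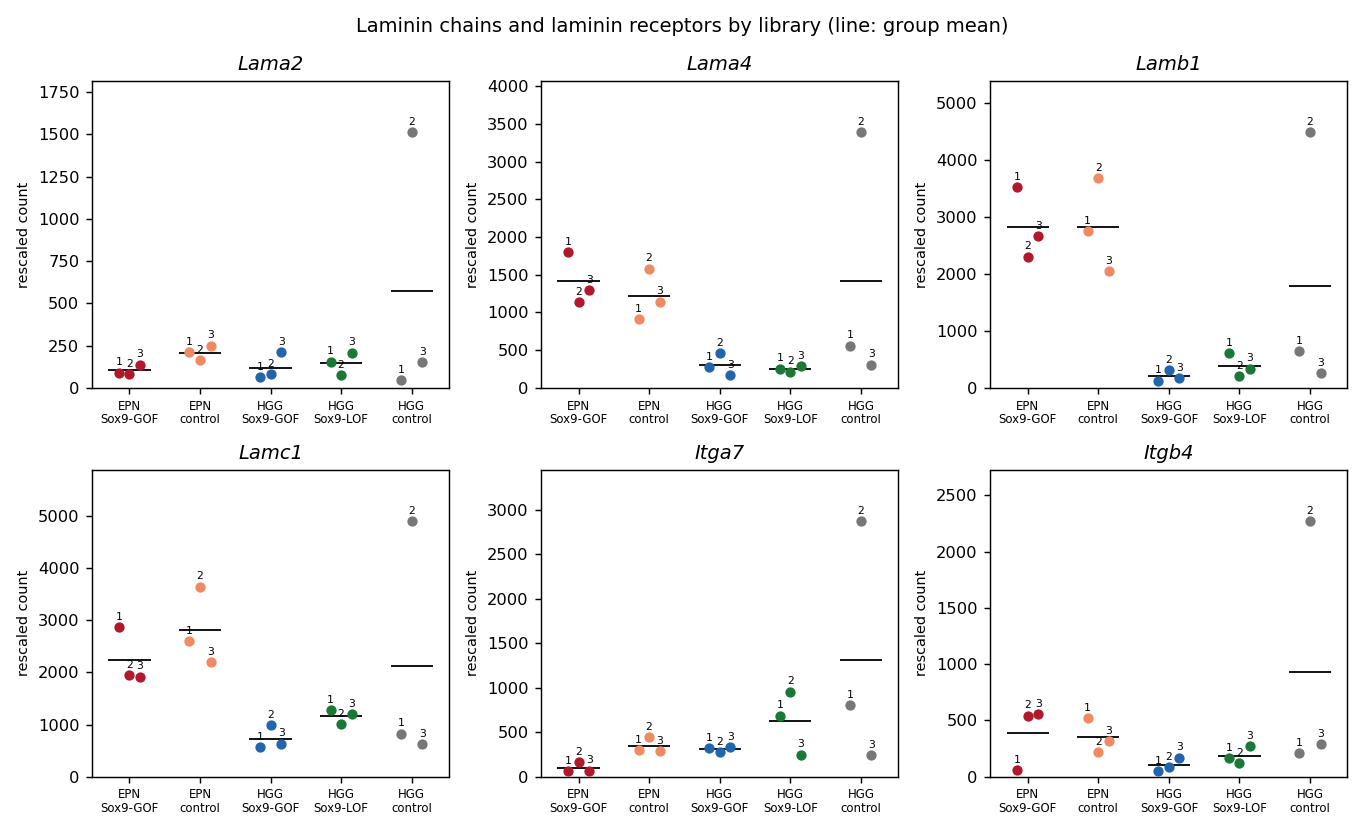
Rescaled counts (linear axes from 0) of 4 laminin chains (Lama2, Lama4, Lamb1, Lamc1) and 2 laminin receptor subunits (Itga7, Itgb4) by group, with a point for each library numbered by replicate and a line at the group mean. HGG control 2 lies above every EPN library for Lamb1 and Lamc1, at 4482 and 4912.

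The first comparison was between the control tumours of both types. EPN controls held more RNA of the alpha v receptor subunits Itgav and Itgb5, of the RGD-binding subunits Itga5 and Itga8, of Itga9 and Itga11, and of the laminin chains Lama1 and Lamc3 than HGG controls. They held less of Itgad, Itgax and Itga2b, subunits of leukocyte and platelet integrins. In all, 11 of 35 tested members passed limma's adjusted p threshold of 0.05 (8 higher, 3 lower), where 15.3% of all 15105 genes did (9.51% higher, 5.83% lower). At an unadjusted p under 0.05 it was 33.3% of all genes, and DESeq2 called 13 members (9 higher, 4 lower), against 26.9% of all genes (13.7% higher, 13.2% lower). The median log2 fold change of the members was 1.01, against 0.00 over all genes, and was 1.12 for laminins and -0.18 for integrins. With each library left out in turn, the median of the members ran from 0.55 to 1.01. That of the laminins ran from 0.73 to 1.80 and that of the integrins from -0.19 to 0.40. In bulk tissue, more cells of a type and more RNA per cell cannot be told apart. Sox9 itself was higher in EPN controls, by 2.02 on the log2 scale (SE 0.20, limma adjusted p = 0.00427).

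Among laminin alpha chains, Lama1, a chain of the earliest embryonic basement membranes, had 1534, 529 and 372 rescaled counts in the EPN controls, against 83.3, 41 and 54.7 in the HGG controls. The groups did not overlap, although the EPN controls themselves spanned a wide range. Lama1 rose by 3.53 on the log2 scale (SE 0.56, limma adjusted p = 0.0125), or 11.5-fold. The gamma chain Lamc3, known from the cortical surface and retina, had 1916, 1905 and 364 in the EPN controls, against 42.9, 30.8 and 39.1 in the HGG controls. Its lowest EPN control still lay far above every HGG control, and the log2 fold change was 4.85 (SE 0.66, limma adjusted p = 0.00838). These were the laminins that passed, 2 of 10.

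The vascular and widely used chains gave another picture. Lamb1 had 2741, 3672 and 2050.5 rescaled counts in the EPN controls, against 643, 4482 and 257 in the HGG controls. HGG control 2 exceeded all EPN controls while the other HGG controls lay well below them. With all libraries the log2 fold change of Lamb1 was 1.60 (limma adjusted p = 0.301), and it was 2.75 (adjusted p = 0.0211) without HGG control 2. Lamc1 went the same way, at 1.02 (limma adjusted p = 0.394) with that library and 1.94 (adjusted p = 0.016) without it. Leaving out HGG control 1 or HGG control 3 instead gave 1.35 and 0.69 for Lamb1. For Lamc1 it gave 0.66 and 0.45, and neither gene passed in those fits. Lama5, the endothelial and epithelial alpha chain, had 1265, 1949.7 and 1204 in the EPN controls, against 426, 1208 and 146 in the HGG controls. Here too HGG control 2 lay within the EPN range. Without HGG control 2, Lama5 and Lamb2 also passed, and all 10 tested laminins had a positive log2 fold change. The laminin median was then 1.80, against -0.003 over all genes. Without HGG control 1 the laminin median was 0.73, and without HGG control 3 it was 0.98, against 0.03 over all genes in each fit. How many of all genes passed also changed with the library left out, so no count of members past the threshold is read from that fit here.

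Of the 4 RGD-binding alpha subunits, 3 rose and Itga2b fell. Itgav, the alpha v subunit shared by several vitronectin and latent TGF-beta receptors, had 3266, 3138 and 3518 rescaled counts in the EPN controls, against 1148, 1214 and 662 in the HGG controls. All EPN values lay close together and well above the highest HGG control. The log2 fold change was 1.76 (SE 0.26, limma adjusted p = 0.0104), or 3.39-fold. Its partner Itgb5 had 5908, 5214 and 4459 in the EPN controls, against 1098, 1152 and 1934 in the HGG controls, again without overlap. Itgb5 rose by 1.94 on the log2 scale (SE 0.27, limma adjusted p = 0.0086).

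Itga5, the alpha subunit of the main fibronectin receptor, had 3039, 2883 and 1853 rescaled counts in the EPN controls, against 519.8, 113 and 342 in the HGG controls. Each EPN control exceeded the highest HGG control more than 3-fold, and the log2 fold change was 3.22 (SE 0.56, limma adjusted p = 0.0161). For Itga8, the nephronectin receptor subunit of mesenchymal cells, the values were 249, 539 and 837 in the EPN controls, against 56.3, 43.1 and 30.5 in the HGG controls. The lowest EPN control was several times the highest HGG control, with a log2 fold change of 3.49 (SE 0.49, limma adjusted p = 0.00886). Itga9, which binds tenascin and osteopontin, had 2374, 2655 and 1727 in the EPN controls, against 448, 295 and 146 in the HGG controls. Itga9 levels did not overlap either, at a log2 fold change of 3.04 (SE 0.42, limma adjusted p = 0.0086). The collagen receptor subunit Itga11 was higher by 3.46 (SE 0.62, limma adjusted p = 0.0174). Itgb1, their common beta partner, had 6766, 7579 and 5979 in the EPN controls, against 4748, 4117 and 1940.1 in the HGG controls, without overlap, and did not pass (1.00, limma adjusted p = 0.108).

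On the lower side, Itgad had its handful of reads in the EPN controls, against 76.2, 39 and 111 rescaled counts in the HGG controls. Its log2 fold change was -4.54 with a pseudocount of 1 (SE 0.60, limma adjusted p = 0.00788) and -2.94 with a pseudocount of 8. Itgax, the CD11c subunit of dendritic cells and activated microglia, had 264, 248 and 168 in the EPN controls, against 925, 414 and 1142 in the HGG controls, lower in each EPN library (-1.77, SE 0.41, limma adjusted p = 0.0367). Itga2b, the platelet fibrinogen receptor subunit, was lower too (-1.97, SE 0.39, limma adjusted p = 0.0226). Leukocyte subunits did not all lie lower. Itgam, the CD11b subunit of microglia and macrophages, had 2009, 1971 and 1173 in the EPN controls, against 748, 412 and 1461 in the HGG controls. Its log2 fold change was 1.12 (limma adjusted p = 0.159), and 68.7% of its exon bases are shared with the overlapping same-strand gene Gm49368, so its reads are uncertain.

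Several leukocyte members were uneven within the HGG controls. Itgal, the LFA-1 subunit of lymphocytes, had 780.1, 39 and 1452 rescaled counts in HGG controls 1, 2 and 3. Itgb7, a subunit of gut-homing and resident lymphocytes, had 251, 22.6 and 437 in the same libraries. Both were lowest in HGG control 2, the library with the lowest sum of lymphocyte markers, in which 2 of the 12 markers were at 0.

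**Figure D3:**
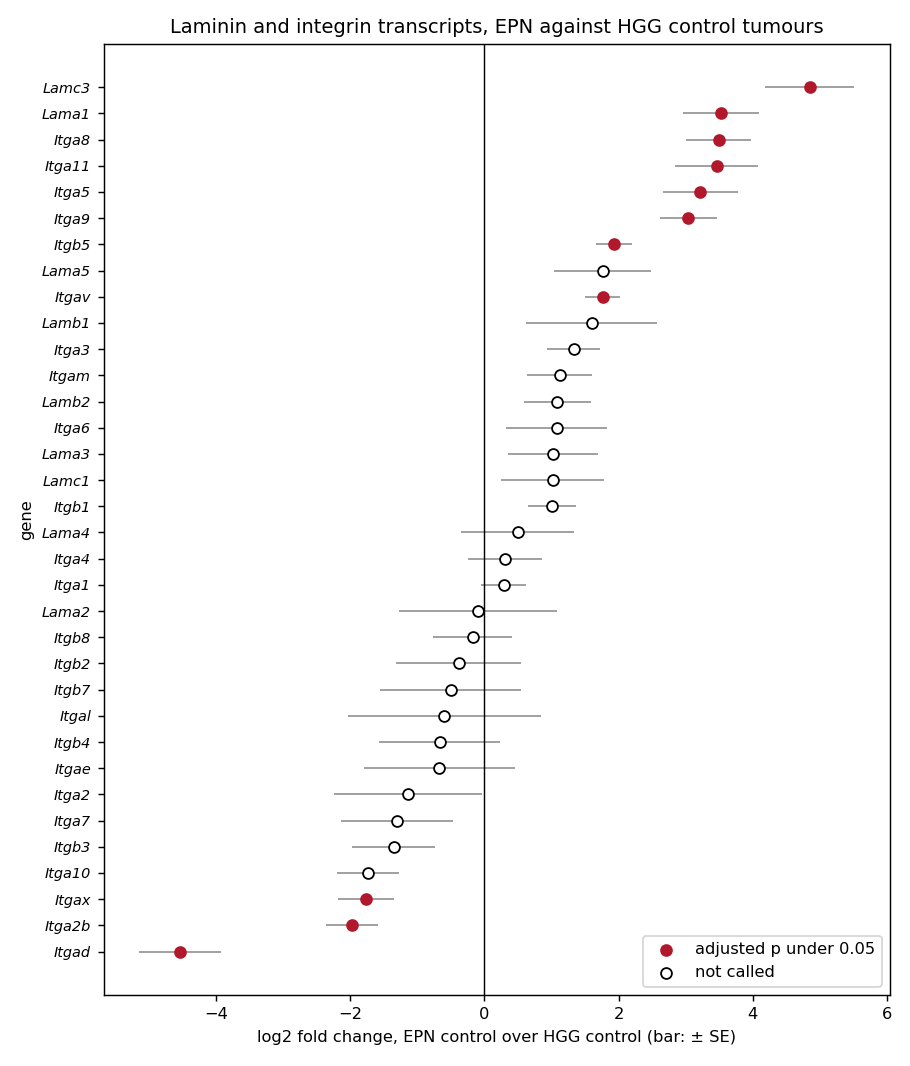
Log2 fold change of all tested members but 1, EPN control over HGG control, with its standard error from limma, sorted by size. Filled points are the 8 higher and 3 lower members that passed, and Lamc3 and Itgad lie at the ends, at 4.85 and -4.54.

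Non-overlap of the groups was found for 14 of 35 members (10 higher, 4 lower), against 40.3% of all genes (21.9% higher, 18.4% lower). The calls rest on few libraries. Leaving out EPN control 2 left 1 member past the threshold (Itgad), and leaving out EPN controls 1 or 3 or HGG controls 1, 2 or 3 left 7, 6, 12, 17 and 11. The number of all genes past the threshold also varied widely between these fits, so these counts of members are not set against a share of all genes.

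Genes that work with these receptors and ligands were also compared, where 9.51% of all genes rose and 5.83% fell, with a median over all genes of 0.00. Among 35 tested genes of focal adhesion and integrin activation, 9 rose and 1 fell, with a median log2 fold change of 0.50. They included Tns2, which links integrins to actin (2.51, limma adjusted p = 0.00635), and the actin crosslinker Actn4 (1.70, limma adjusted p = 0.0165). Of 21 other extracellular ligands, 5 rose and 2 fell (median 1.296). Fn1, which encodes fibronectin, rose by 3.64 (limma adjusted p = 0.00898) and Vwf, the endothelial and platelet adhesion protein, by 2.32 (limma adjusted p = 0.0109), while Mfge8, an RGD ligand of alpha v integrins, had a log2 fold change of -1.54 (limma adjusted p = 0.017).

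Of 18 basement membrane partners of laminin, 3 rose and 0 fell (median 1.31), namely the collagen chains Col4a2, Col18a1 and Col4a5. Of 19 laminin receptors other than integrins, 4 rose and 1 fell (median 0.00). The syndecans Sdc1, Sdc2 and Sdc4 were among those higher, at 4.32, 0.93 and 2.29, and Sdc3 was lower at -1.46. Of 9 genes of the latent TGF-beta complex on which alpha v integrins act, 4 rose and 0 fell (median 0.91). Lrrc32, which holds latent TGF-beta at the cell surface, rose by 4.05 (limma adjusted p = 0.000935) and the cytokine gene Tgfb3 by 3.08 (limma adjusted p = 0.00226). Of 13 cell-bound ligands, the endothelial Pecam1 rose and the neuronal L1cam fell (median 0.33).

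Markers of other cell types moved with this contrast. All 10 endothelial markers had a positive log2 fold change and 7 passed the threshold, and their sum was 4316 to 5739 rescaled counts in the EPN controls, against 889 to 2057 in the HGG controls. Pericyte and smooth muscle markers summed to 4378 to 5492 in the EPN controls, against 2239.8 to 4207 in the HGG controls (8 of 10 positive, 4 passed). Fibroblast and meningeal markers summed to 27499.6 to 35813 in the EPN controls, against 6531 to 28952 in the HGG controls (7 of 9 tested positive, 3 passed). Endothelial and pericyte markers were above 0 in every library. Epithelial markers summed to 888 to 2324 in the EPN controls, against 122 to 871 in the HGG controls, just without overlap (5 of 7 tested positive, 2 passed), with 2 to 3 of the 10 at 0 in an EPN control and 3 to 5 in an HGG control. All 14 microglial and macrophage markers had a positive log2 fold change (2 passed), with sums of 37478 to 71552 in the EPN controls, against 16916 to 51953 in the HGG controls, overlapping, while Itgax and Itgad were lower. Oligodendrocyte and precursor markers were on the lower side, with 11 of 12 negative (2 passed) and sums of 23398 to 42466 in the EPN controls, against 48479 to 166646 in the HGG controls. The part of these cell types in the differences of integrins and laminins was not tested.

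Gain of Sox9 function in EPN tumours was compared within its own table. No integrin or laminin passed limma's adjusted threshold there, where 0% of 14591 genes did, and the member with the lowest p was Itga7, which lay lower. At an unadjusted p under 0.05, 1 member lay higher and 2 lower, against 15.1% of all genes (4.31% higher, 10.7% lower), and DESeq2 called 1 member (Itga7, lower), against 5.82% of all genes (0.744% higher, 5.08% lower). edgeR's quasi-likelihood test called 0 genes. The median log2 fold change over 34 tested members was -0.09, against 0.04 over all genes. Sox9 had a log2 fold change of 1.04 (SE 0.18, limma adjusted p = 0.133, DESeq2 adjusted p = 0.000464) with no overlap between the groups.

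Itga7, a laminin-binding subunit of muscle and glia, gave the lowest p. It had 58.4, 160.5 and 68.2 rescaled counts in the EPN Sox9-GOF libraries, against 296, 447 and 288 in the EPN controls. The groups did not overlap, at a log2 fold change of -1.91 (SE 0.40, limma adjusted p = 0.15, DESeq2 adjusted p = 0.00285). Astrocyte markers were lower in the same libraries, with negative values for all 10 (median -1.55), none at 0 in any library and sums of 9017 to 30898 in the EPN Sox9-GOF libraries, against 40272 to 47183 in the EPN controls, without overlap. Their part in the lower Itga7 was not tested. The other laminin-binding alpha subunits also had negative values, with Itga6 at 565, 759.6 and 1101 in the EPN Sox9-GOF libraries, against 1036, 1102 and 1284 in the EPN controls. The Itga6 ranges overlapped, and its log2 fold change was -0.50 (SE 0.25, limma adjusted p = 0.408).

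Among laminins, Lama2, the alpha chain of muscle and of brain vessels, had 90.1, 83.7 and 137 rescaled counts in the EPN Sox9-GOF libraries, against 212, 163 and 250.5 in the EPN controls. Each EPN Sox9-GOF library lay below each control, at a log2 fold change of -0.97 (SE 0.29, limma adjusted p = 0.189). Lamc3 had 59.8, 239.8 and 765 in the EPN Sox9-GOF libraries, against 1916, 1905 and 364 in the EPN controls. The highest EPN Sox9-GOF library exceeded the lowest control, and the spread was wide in both groups (-2.25, SE 0.98, limma adjusted p = 0.343). Lamb2 had 859, 782 and 979 in the EPN Sox9-GOF libraries, against 1001, 1013 and 1133 in the EPN controls, below the controls on this scale and within their range on that of the deposited table (-0.22, SE 0.15, limma adjusted p = 0.558).

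On the higher side stood Itgb7, with 152, 238 and 138 rescaled counts in the EPN Sox9-GOF libraries, against 126, 103 and 68.5 in the EPN controls. These did not overlap (0.87, SE 0.32, limma adjusted p = 0.269). Itga8 had 1199.8, 592 and 1567 in the EPN Sox9-GOF libraries, against 249, 539 and 837 in the EPN controls, where 1 of the gain-of-function libraries fell inside the control range (1.15, SE 0.51, limma adjusted p = 0.348). Itga1, a collagen receptor subunit, had 184, 160.5 and 134 in the EPN Sox9-GOF libraries, against 221, 245 and 169.6 in the EPN controls (-0.35, SE 0.23, limma adjusted p = 0.541). Its ranges overlapped.

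Itgav and Itgb5 had log2 fold changes near 0 here. Itgav had 3335, 2042 and 4858 rescaled counts in the EPN Sox9-GOF libraries, on both sides of the EPN controls (0.01, SE 0.30). Itgb5 had 4579.8, 5916 and 4545, over nearly the same range as the controls (-0.01, SE 0.19). With SEs of this size, smaller changes would not be seen. Non-overlap of the groups was found on the scale of the deposited table for 3 of 34 members (1 higher, 2 lower), against 22% of all genes (9.45% higher, 12.5% lower).

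**Figure D4:**
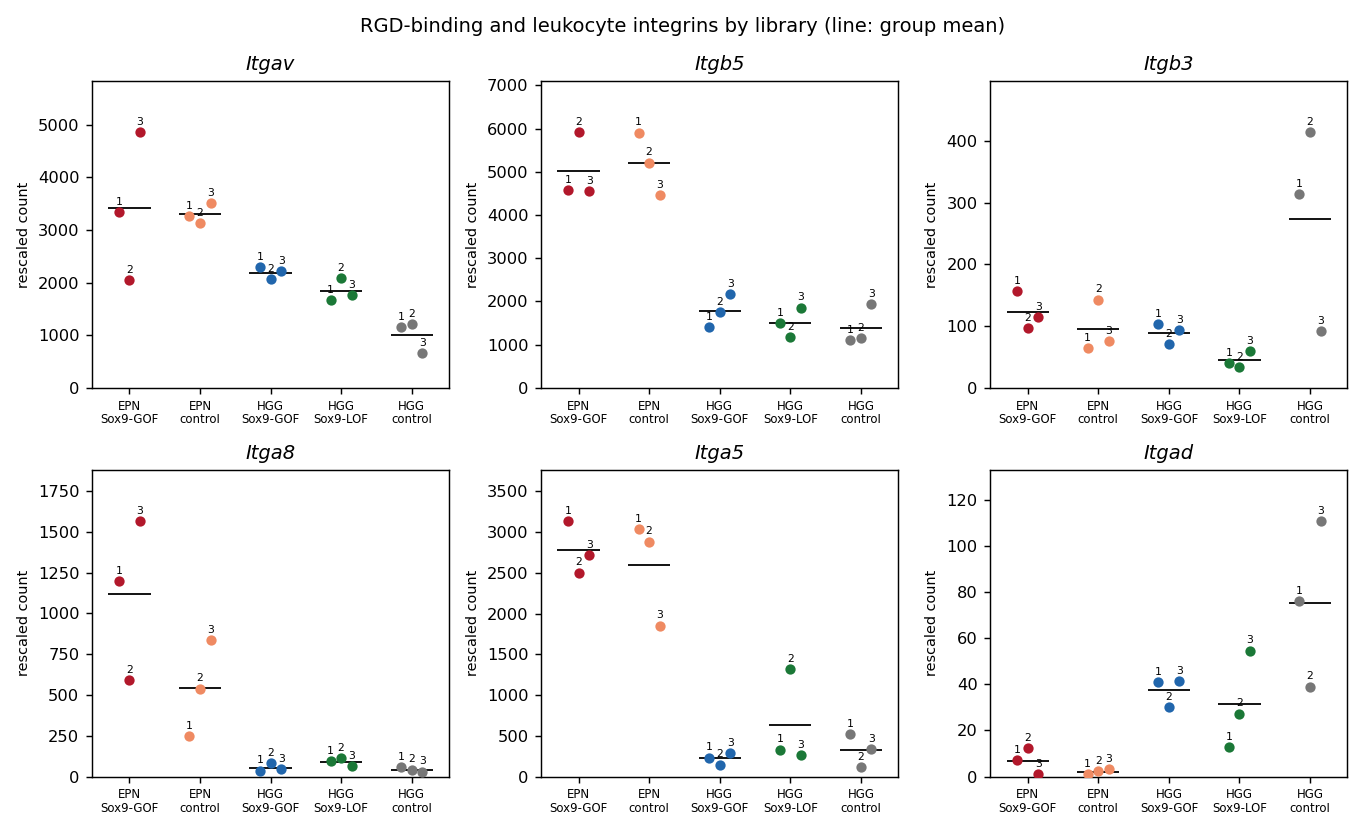
Rescaled counts (linear axes from 0) of Itgav, Itgb5, Itgb3, Itga8, Itga5 and Itgad by group, with a point for each library numbered by replicate and a line at the group mean. Itgav is 1672 or more in every library other than the HGG controls, which lie at 662 to 1214.

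The partner lists held 0 genes past limma's threshold in this comparison. DESeq2 called 5 of 21 other extracellular ligands, 2 of 12 cell-bound ligands and 1 of 19 laminin receptors other than integrins, all lower, against 5.82% of all genes (0.744% higher, 5.08% lower). The lowest p of these was that of Tnr, the tenascin of perineuronal nets (-2.31, limma adjusted p = 0.133, DESeq2 adjusted p = 1.55e-05), followed by those of Nov and Reln. Neuronal markers stood lower in the same libraries, with all 11 negative, a median log2 fold change of -2.33 and sums of 2263 to 4255 in the EPN Sox9-GOF libraries, against 7703 to 16362 in the EPN controls. Oligodendrocyte and precursor markers were negative for 11 of 12 (median -1.63), with sums of 6945 to 29286 in the EPN Sox9-GOF libraries, against 23398 to 42466 in the EPN controls, where the highest EPN Sox9-GOF library exceeded the lowest control. Endothelial markers were negative for all 10, with sums of 2768 to 4868 in the EPN Sox9-GOF libraries, against 4316 to 5739 in the EPN controls. Neurons express Reln and Tnr is made by the oligodendrocyte lineage and by some neurons, and the part of these cell types in the values above was not tested.

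In HGG tumours, gain of Sox9 function was compared in the same way, and Itgav was the member with the lowest p. It had 2288, 2061 and 2218 rescaled counts in the HGG Sox9-GOF libraries, against 1148, 1214 and 662 in the HGG controls. The values of the HGG Sox9-GOF libraries lay within a narrow band, and each exceeded the highest control. The log2 fold change was 1.19 (SE 0.27, limma adjusted p = 0.0784), or 2.28-fold, past the threshold with DESeq2 (adjusted p = 0.00578) and not with limma. Corrected for GC content and length, the log2 fold change was 0.55. Sox9 had a log2 fold change of 2.40 (SE 0.20, limma adjusted p = 0.059, DESeq2 adjusted p = 1.89e-18) without overlap.

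No member passed limma's adjusted threshold, where 0% of 15092 genes did. DESeq2 called 5 members (1 higher, 4 lower), against 13.6% of all genes (6.73% higher, 6.85% lower), and 22.7% of all genes had an unadjusted limma p under 0.05. edgeR's quasi-likelihood test called 0 genes. The median log2 fold change over 36 tested members was -0.31, against 0.03 over all genes. For laminins it was -0.91 with all libraries and -0.05 without HGG control 2, and for integrins -0.31 and -0.64. Non-overlap on the scale of the deposited table was found for 7 of 36 members (1 higher, 6 lower), against 30.5% of all genes (15.3% higher, 15.2% lower).

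The lower members were spread over roles. Across genes, GC content and log2 fold change had a Spearman correlation of -0.578 in this comparison. GC content of the longest transcript was 59.9% for Lama5, 60.0% for Itgb4, 58.2% for Itga2b and 57.9% for Itga3. It was 53.8% for Itga10, 52.5% for Lamb1 and 52.1% for Itgb3, against 43.5% for Itgav. Itgb5 at 57.0% and Itga11 at 55.5% had positive log2 fold changes whichever library was left out. Values corrected for GC content and length are not given here for the lower members. The part of GC content in the lower values was not tested. Lama5 had 61.7, 71.2 and 137 rescaled counts in the HGG Sox9-GOF libraries, against the 426, 1208 and 146 of the HGG controls. All HGG Sox9-GOF values lay below the lowest control. The log2 fold change was -2.29 (SE 0.77, limma adjusted p = 0.153, DESeq2 adjusted p = 0.00611), and it was -1.52 without HGG control 2. Lamb1 had 129, 318 and 169 in the HGG Sox9-GOF libraries, of which the highest exceeded the lowest control. Its log2 fold change of -2.22 (SE 1.02, limma adjusted p = 0.259, DESeq2 adjusted p = 0.0144) became -1.06 without HGG control 2.

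Itgb4, the laminin-binding beta subunit that pairs with Itga6, had 45.9, 82.9 and 168 rescaled counts in the HGG Sox9-GOF libraries, against 212, 2274 and 291 in the HGG controls. The groups did not overlap, and the size of the difference came largely from HGG control 2 (-2.55, SE 0.96, limma adjusted p = 0.187, DESeq2 adjusted p = 0.00897; -1.48 without it). Itga3, another laminin-binding subunit, had 83.3, 91.7 and 133 in the HGG Sox9-GOF libraries, against 363, 133 and 185 in the HGG controls. The highest Sox9-GOF library and the lowest control were level (-1.02, SE 0.42, limma adjusted p = 0.217). Itga10, a collagen receptor subunit of cartilage that shares 33.5% of its exon bases with Gm42957, had 10.8, 21.3 and 28.1 in the HGG Sox9-GOF libraries, against 50.8, 49.2 and 41.2 in the HGG controls. It was lower in each Sox9-GOF library (-1.27, SE 0.46, limma adjusted p = 0.175).

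Itga2b had 52.4, 27.2 and 27.2 rescaled counts in the HGG Sox9-GOF libraries, against 69, 57.4 and 98 in the HGG controls (-1.07, SE 0.41, limma adjusted p = 0.196). Its beta partner Itgb3 had 103, 70.4 and 93 in the HGG Sox9-GOF libraries, against 314, 414 and 91.6 in the HGG controls (-1.35, SE 0.58, limma adjusted p = 0.234, DESeq2 adjusted p = 0.0495). Itga2b did not overlap between the groups, and Itgb3 did. Itgam lay on the other side, with 2279.7, 1309 and 2039 in the HGG Sox9-GOF libraries against 748, 412 and 1461 in the HGG controls, overlapping ranges, and a log2 fold change of 1.27 (SE 0.48, limma adjusted p = 0.184). Each HGG Sox9-GOF library nonetheless exceeded the HGG control of the same replicate number, and with the number as a block limma's adjusted p for Itgam was 0.117. No pairing by number is stated, and replicate 1 was not the best match of its own number across genes. All 14 microglial and macrophage markers had positive values in this comparison, with sums of 33925 to 52719 in the HGG Sox9-GOF libraries, against 16916 to 51953 in the HGG controls, also higher within each number, and their part was not tested.

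Basement membrane partners of laminin had negative values for 14 of 18 genes. None passed with limma and 7 did with DESeq2, all lower, against 13.6% of all genes (6.73% higher, 6.85% lower), at a median log2 fold change of -1.001. Col4a2, a chain of the main basement membrane collagen, had -1.78 (limma adjusted p = 0.112, DESeq2 adjusted p = 0.00638) and Nid1, which ties laminin to that collagen, -2.01 (limma adjusted p = 0.195, DESeq2 adjusted p = 0.0155). Of 19 laminin receptors other than integrins, DESeq2 called 1 higher and 1 lower, the lower one being Bcam, a laminin receptor of red cells and epithelia (-1.81, limma adjusted p = 0.0725). Among ligands, the tenascins Tnn and Tnr had 2.55 and 2.08 (limma adjusted p = 0.0632 and 0.113). All 9 genes of the latent TGF-beta complex had negative values, with a median of -0.71 and none past the threshold. Fibroblast and meningeal markers summed to 5290.0 to 16112 in the HGG Sox9-GOF libraries, against 6531 to 28952 in the HGG controls, with HGG control 2 the highest of all, and their part was not tested.

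The libraries labelled Sox9-LOF were set against the same HGG controls. Sox9 was not lower in them but had a log2 fold change of 1.03 (SE 0.29, limma adjusted p = 0.184, DESeq2 adjusted p = 0.0375). No member passed limma's adjusted threshold, where 0% of 14861 genes did, and 17.3% of all genes had an unadjusted p under 0.05. DESeq2 called 3 members, all lower, against 8.01% of all genes (3.8% higher, 4.2% lower), and edgeR's quasi-likelihood test called 0 genes. The median log2 fold change over 35 tested members was -0.64, against 0.01 over all genes. Without HGG control 2 it was -0.22, and that of the laminins was -0.07, against -0.62 with it.

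Itgb3, the beta subunit of platelet and alpha v integrins, had the lowest p here, on the lower side. It had 39.8, 34.1 and 60.1 rescaled counts in the libraries labelled Sox9-LOF, against 314, 414 and 91.6 in the HGG controls, without overlap. The log2 fold change was -2.38 (SE 0.60, limma adjusted p = 0.164, DESeq2 adjusted p = 0.00136), that is 5.19-fold lower. With the spread estimated from all 15 libraries, limma's adjusted p was 0.0182. Platelet markers summed to 44.4 to 72.3 in the libraries labelled Sox9-LOF, against 105 to 324 in the HGG controls, with 1 to 4 of the 8 at 0 in each of these libraries, and their part was not tested.

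Itgav had 1672, 2084 and 1769 rescaled counts in the libraries labelled Sox9-LOF, again all above the HGG controls (0.91, SE 0.28, limma adjusted p = 0.204). Itga8 had 93.5, 114 and 62.3 in the libraries labelled Sox9-LOF, each above the highest HGG control of 56.3 (1.03, SE 0.40, limma adjusted p = 0.263). Across genes, GC content and log2 fold change had a Spearman correlation of -0.473 in this comparison. GC content was 43.5% for Itgav and 44.0% for Itga8. Their values corrected for GC content and length are not given here, and the part of GC content was not tested. Itgb8, the alpha v partner of astrocytes that activates latent TGF-beta, had 565, 419 and 554 in the libraries labelled Sox9-LOF, against 125, 574 and 141 in the HGG controls. HGG control 2 lay above all 3 of them and the other controls far below, and the log2 fold change was 1.22 (SE 0.59, limma adjusted p = 0.342), or 0.55 after correction for GC content and length. The 10 astrocyte markers all had positive values in the same comparison, summing to 72183 to 81514 in the libraries labelled Sox9-LOF, against 11522 to 52347 in the HGG controls. Their part was not tested.

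Members on the lower side included Itgax, with 313, 305 and 466 rescaled counts in the libraries labelled Sox9-LOF, against 925, 414 and 1142 in the HGG controls (-1.10, SE 0.41, limma adjusted p = 0.249). Itga4, the VCAM-1 receptor subunit of leukocytes, had 117, 87.4 and 125 in the libraries labelled Sox9-LOF, against 331, 100.5 and 396 in the HGG controls (-1.12, SE 0.53, limma adjusted p = 0.335). Itga1 had 72.5, 119 and 107 in the libraries labelled Sox9-LOF, against 157, 260.4 and 123 in the HGG controls (-0.81, SE 0.38, limma adjusted p = 0.329). Of these, Itga1 did not overlap, while for Itgax and Itga4 the lowest HGG control, control 2, lay inside the range of the other group. Lama4, an endothelial alpha chain, had 255, 217 and 285 in the libraries labelled Sox9-LOF, against 561, 3391 and 309 in the HGG controls. It was lower in each, by a log2 fold change of -1.74 (SE 0.83, limma adjusted p = 0.339, DESeq2 adjusted p = 0.0382) with HGG control 2 and -0.73 without it.

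Non-overlap was found for 6 of 35 members (2 higher, 4 lower), against 24.5% of all genes (12.8% higher, 11.7% lower). All 12 tested lymphocyte markers had negative values, with sums of 77.2 to 499.7 in the libraries labelled Sox9-LOF, against 45.1 to 4301 in the HGG controls, where control 2 held the lowest sum. Up to 1 of the 12 was at 0 in a library labelled Sox9-LOF and 2 were in HGG control 2. Itgb7 and Itgal, subunits of lymphocyte integrins, had log2 fold changes of -2.06 and -1.27 (limma adjusted p = 0.388 and 0.639), and the part of lymphocytes was not tested. Both values moved with single controls: Itgb7 had -3.32 without HGG control 2 and -1.22 without HGG control 3, and Itgal had -2.84 without HGG control 2, -0.71 without HGG control 1 and -0.26 without HGG control 3. Of the partner lists none held a gene past limma's threshold. The basement membrane partners had a median of -0.83 over 18 genes, with DESeq2 calling 3 lower, against 4.2% of all genes, among them Col18a1 (-2.02, limma adjusted p = 0.2).

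**Figure D5:**
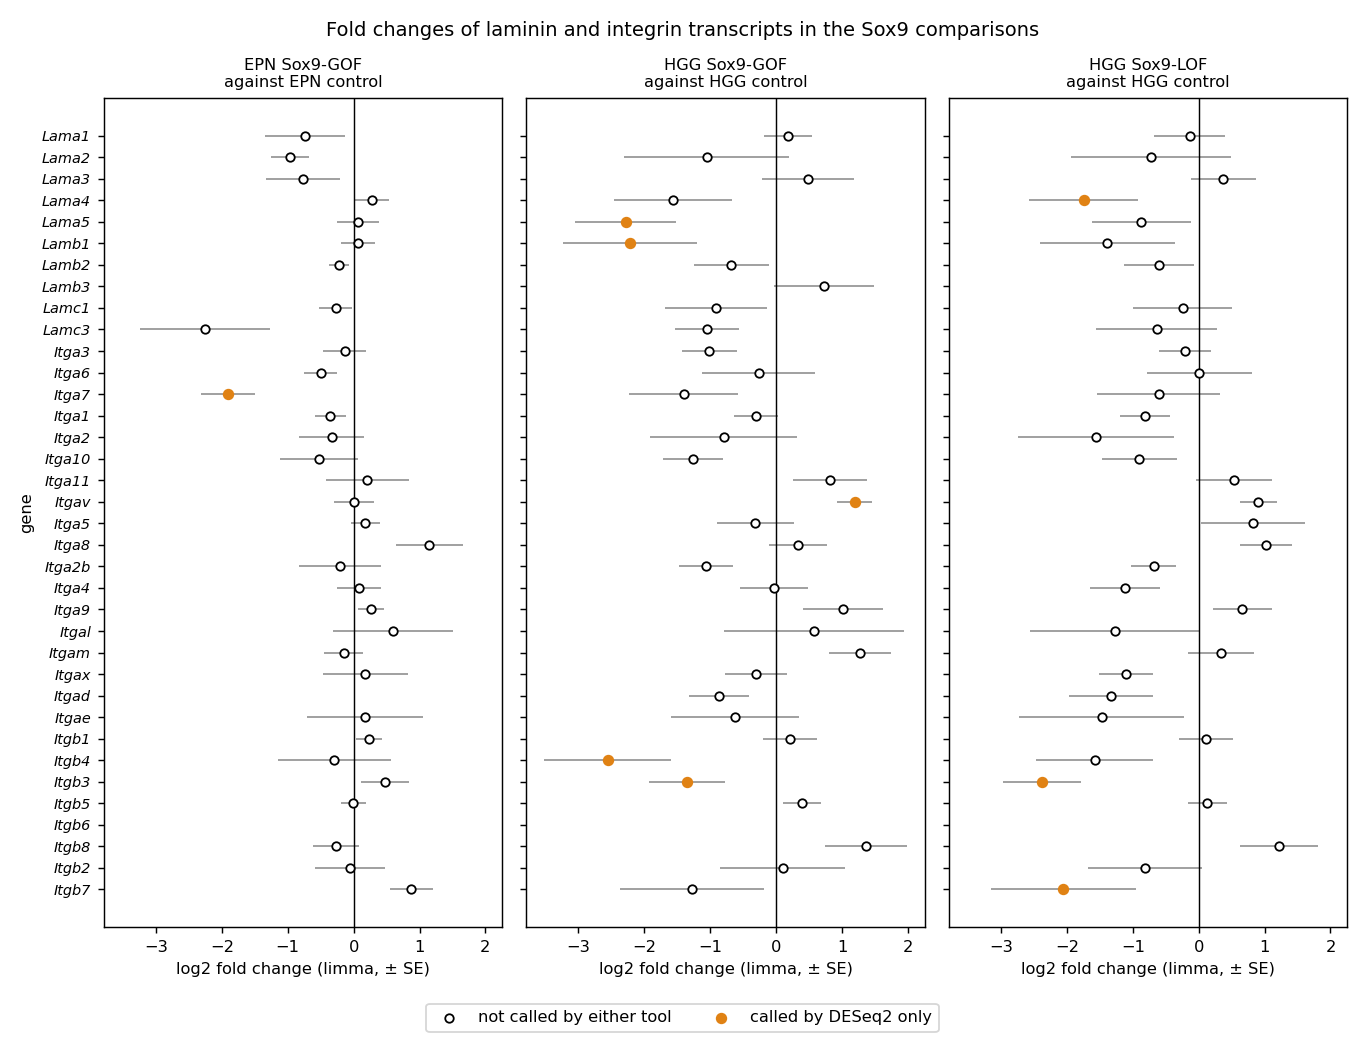
Log2 fold change with its standard error (limma) of all tested members but 1 in the 3 Sox9 comparisons, EPN Sox9-GOF, HGG Sox9-GOF and HGG labelled Sox9-LOF, each over its own controls, with filled points for members called by DESeq2 and not by limma. Both HGG comparisons use the same HGG control libraries. Itgav lies at 1.19 and 0.91 in HGG and at 0.01 in EPN.

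Since both HGG comparisons use the same controls, the HGG groups were also compared directly. Every HGG Sox9-GOF library held more Sox9 RNA than every library labelled Sox9-LOF, with a log2 fold change of 1.34 (SE 0.24, limma adjusted p = 0.503, DESeq2 adjusted p = 0.00292). No member passed with limma, where 0% of 14873 genes did (7.41% at an unadjusted p under 0.05), and DESeq2 called 2 members, both higher, against 0.726% of all genes (0.419% higher, 0.307% lower). edgeR's quasi-likelihood test called 0 genes. Over 36 tested members the median was 0.19, against -0.02 over all genes.

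The members DESeq2 called were Itga4 and Itgal, both subunits of leukocyte integrins. Itga4 had 223, 208 and 253 rescaled counts in the HGG Sox9-GOF libraries, all above the 87.4 to 125 of those labelled Sox9-LOF (1.06, SE 0.23, limma adjusted p = 0.578, DESeq2 adjusted p = 0.0109). Itgal had 1217, 272 and 428 in the HGG Sox9-GOF libraries, against 158, 90.8 and 223 in those labelled Sox9-LOF, also without overlap (1.82, SE 0.56, limma adjusted p = 0.62, DESeq2 adjusted p = 0.0373). Lymphocyte markers had positive values for all 11 tested, with sums of 211 to 778 in the HGG Sox9-GOF libraries, against 77.2 to 499.7 in those labelled Sox9-LOF, and their part was not tested. Itgam and Itgax, the subunits of myeloid cells, had 0.90 and 0.77 (limma adjusted p = 0.64 and 0.673).

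On the lower side, Lama5 had 61.7, 71.2 and 137 rescaled counts in the HGG Sox9-GOF libraries, against 375, 167 and 198 in those labelled Sox9-LOF, without overlap (-1.44, SE 0.41, limma adjusted p = 0.62). Lamc1 had 573, 986 and 633 in the HGG Sox9-GOF libraries, against 1271, 1008 and 1206 in those labelled Sox9-LOF, the highest of the HGG Sox9-GOF libraries lying just under the lowest of the others (-0.70, SE 0.24, limma adjusted p = 0.62). Itga3 had 83.3, 91.7 and 133 in the HGG Sox9-GOF libraries, against 228, 163 and 157 in those labelled Sox9-LOF, without overlap (-0.83, SE 0.28, limma adjusted p = 0.62). Itgb3 was higher in each HGG Sox9-GOF library (1.00, SE 0.33, limma adjusted p = 0.62). Non-overlap was found for 7 of 36 members (4 higher, 3 lower), against 13.6% of all genes (6% higher, 7.6% lower). The partner lists held 0 genes past limma's threshold here, and DESeq2 called 2 of 21 other extracellular ligands lower, against 0.307% of all genes, among them the tenascin Tnc (-2.04, limma adjusted p = 0.64, DESeq2 adjusted p = 0.0151).

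Whether gain of Sox9 function acted differently in the tumour types was tested as the EPN effect minus the HGG effect over 12 libraries. The difference was negative for Sox9 itself, at -1.36 (SE 0.26, limma adjusted p = 0.0233), because its log2 fold change was 1.04 in EPN and 2.40 in HGG. None of 35 tested members passed, while 920 of 15145 genes did (6.07%, of which 2.85% positive and 3.23% negative), and DESeq2 called 4 members, all with a positive difference, against 15.1% of all genes (7.28% positive, 7.81% negative); 27.1% had an unadjusted limma p under 0.05. The lowest p among members was that of Itgav, with a difference of -1.18 (SE 0.43, limma adjusted p = 0.11), where its effects were 0.01 in EPN and 1.19 in HGG. Corrected for GC content and length the difference was -0.32. The higher Itgav in HGG Sox9-GOF tumours is therefore not shown to be particular to HGG.

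Lama5, Lamb1 and Itgb3 had positive differences, from effects of 0.06, 0.07 and 0.48 in EPN and -2.29, -2.22 and -1.35 in HGG. They were 2.35 for Lama5 (SE 0.90, limma adjusted p = 0.125, DESeq2 adjusted p = 0.0192), 2.28 for Lamb1 (SE 1.14, limma adjusted p = 0.224, DESeq2 adjusted p = 0.0342) and 1.83 for Itgb3 (SE 0.73, limma adjusted p = 0.137, DESeq2 adjusted p = 0.0441). DESeq2 also called Itgb7, at 2.15 (limma adjusted p = 0.286). These values rest on the HGG controls. Without HGG control 2, limma called Itgb7 (3.42, adjusted p = 0.0302) and Itgb8 (-2.34, adjusted p = 0.0391), and without HGG control 3 it called Lama5, Lamb1, Itgam and Itgb3 at 3.12, 3.19, -1.89 and 2.49. The median difference of the laminins was -0.49 without HGG control 2 (3 of 10 positive) and 0.47 without HGG control 3 (6 of 10 positive). The number of all genes called also varied widely between such fits, so these calls of members are not set against a share of all genes.

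Itgam, Itgb8, Itgad and Lama4 had differences of -1.43, -1.63, 1.87 and 1.85 (limma adjusted p = 0.155, 0.197, 0.24 and 0.268). Over all tested members the median difference was 0.12, against -0.03 over all genes. Of the partner lists, 1 of 35 focal adhesion genes was higher in EPN relative to HGG, Tgfb1i1, a paxillin relative at focal adhesions. Of 21 other extracellular ligands, the tenascins Tnr and Tnn were lower. The basement membrane partners had a median difference of 0.75 over 18 genes with 0 past the threshold, led by Col4a2 (2.11, limma adjusted p = 0.0551).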

How the data were processed

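Libraries were made from poly(A) RNA of trizol-frozen tumour tissue with a stranded TruSeq kit, per the labels' protocols. The submitters' processing notes list STAR 2.5.0a, FastQC 0.11.7, MultiQC 1.11, DESeq2 1.30.1 and the build mm10, with a counter, strand setting and annotation not given in the sources used here. Genes with overlapping exons are therefore uncertain. The authors deposited 3 tables of 6 libraries holding a normalized signal, namely gene counts divided by 1 size factor per library and table, as the values show: with a tolerance of 0.001, 100% of values were whole reads. The reads of the HGG controls were the same in both HGG tables for all 24421 genes. Of the names, 27 had turned into dates and were left unnamed.

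Each Sox9 comparison was fitted within its table with limma 3.58.1 (R 4.3.3, trended variance) on log2(value + 1), keeping genes that averaged 10 or more, with Benjamini-Hochberg adjustment over all genes tested and a threshold of 0.05. Fold changes on this scale understate those of low genes. Levels, the comparison of controls and that of HGG Sox9-GOF with the libraries labelled Sox9-LOF used the recovered reads of all libraries, scaled jointly by median of ratios. Effects of Sox9-GOF in EPN and HGG were compared by 1 contrast over 4 groups on their deposited scales. An exact permutation test of 3 against 3 libraries cannot go below p = 0.1, so none is given for single genes. DESeq2 1.42.0 and edgeR 4.0.16 (quasi-likelihood) were run on the recovered reads. Each fit was tested on simulated data. Gene length, GC content and coordinates come from a GENCODE annotation of the same build, and 24028 genes (98.4%) had a length and GC content. Figures were drawn with matplotlib 3.10.9.

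Named with every library were, per comparison, up to 8 members by smallest p, and the chains that HGG control 2 bears on; of each partner list, up to 4 genes by smallest p. The single values of 1 member and 1 partner gene are not reported here, and the counts and medians include them. The members and all gene lists were chosen with earlier results of these data known. Replicate numbers from the titles were checked for pairing: libraries of the same number were correlated across genes, after each group's mean was taken off, giving 0.178, 0.443 and 0.224 between HGG Sox9-GOF libraries and HGG controls, all over 0.1, which no other comparison with controls gave. There the same number was the best match for replicates 2 and 3 but not for replicate 1. Between HGG Sox9-GOF libraries and those labelled Sox9-LOF the values were 0.0821, 0.168 and 0.275, each the best match. Any such pairing comes from the data, not from a stated batch.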

Additional observations from a re-analysis of the deposited data

Results flagged for a closer look

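Among the genes named here, 4 had Sox9-GOF effects that differed between EPN and HGG tumours past the adjusted threshold of limma's contrast over 12 libraries. For Sox9 the EPN effect minus the HGG effect was -1.36 on the log2 scale, and its adjusted p went above the threshold after correction for GC content and length. For the focal adhesion gene Tgfb1i1 the difference was 1.49. For the tenascins Tnr and Tnn, extracellular ligands of integrins, it was -4.39 and -6.42. With that correction and the replicate number as a block, no gene passed in this contrast, these 4 included. Neuronal markers had a negative difference for all 11 measured, with a median of -3.17, and their part was not tested.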

How the results depend on the processing

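Calls of limma within 6 libraries were few outside the comparison of controls, and how many genes passed depended on how the spread was estimated. With DESeq2, 1238 genes and 3 members were called for the libraries labelled Sox9-LOF against HGG controls, 2173 and 5 for HGG Sox9-GOF against the same controls, 868 and 1 for EPN Sox9-GOF, 4357 genes for EPN against HGG controls, 130 and 2 for HGG Sox9-GOF against the libraries labelled Sox9-LOF, and 2423 and 4 for the difference between EPN and HGG effects. With limma's spread shared by 15 libraries the counts in the same order were 1086 genes and 1 member, 2234 and 2, 130 genes, 4176 genes, 1 gene and 1514 genes.

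With the replicate number as a block, EPN against HGG controls gave 1142 genes, against 2317 without it, and the difference between effects 367, against 920. The numbers did not pair the control libraries, whose same-numbered correlations were 0.232, -0.28 and -0.0214. Of the members, Itga11, Itga2b and Itgax were past the threshold only without the block. In HGG Sox9-GOF against HGG controls, where the numbers may pair the libraries, 0 genes were called with the block as without it. Corrected for GC content and length, the difference between effects gave 200 genes, and with the block as well 0. EPN against HGG controls gave 11 members with the correction, each of those past the threshold without it. The number of all genes in that fit is not given here, so the 11 are not set against a share of all genes. With the correction and the block the same comparison gave 1067 genes and 7 members. Itgav, Itga11, Itga2b and Itgax were then no longer past the threshold. Across genes, the Spearman correlation of GC content with log2 fold change was -0.473 for the libraries labelled Sox9-LOF and -0.578 for HGG Sox9-GOF, both against HGG controls. It was -0.246 for EPN against HGG controls and 0.411 for the difference between effects. For EPN Sox9-GOF it was -0.00843, and for HGG Sox9-GOF against the libraries labelled Sox9-LOF -0.275. Lamb2 in EPN Sox9-GOF reversed to 0.0328 after correction for GC content and length, with and without the block. The cause was not tested for any of these changes.

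Leaving out each library in turn gave 368 to 3633 genes and 1 to 17 members for EPN against HGG controls, 35 to 2095 genes and 0 to 4 members for the difference, 0 to 6 genes for the libraries labelled Sox9-LOF, 0 to 5 for EPN Sox9-GOF, and 0 to 2 for HGG Sox9-GOF against those labelled Sox9-LOF. The fewest calls came without EPN control 2 and the most members without HGG control 2. The sign of the log2 fold change was the same without each library for 25 of 35 members between controls, 24 of 36 in HGG Sox9-GOF, 24 of 35 in those labelled Sox9-LOF and 17 of 34 in EPN Sox9-GOF. With 3 libraries a group and depths down to 4665428 reads in HGG control 2, low members such as Lamb3 and Itgb6 were tested in few or no comparisons.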
